A study of Ziziphus jujuba with 15 samples.

Results

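In leaves of the heat-sensitive jujube (Ziziphus jujuba) cultivar ‘HS’, 101 annotated genes were far lower at every sampled day of heat stress than before it. The values of a gene were averaged over the 3 libraries of a day as log2(FPKM + 1), where FPKM is a fragment count scaled for transcript length and sequencing depth. A gene was taken in when this mean lay at least 2 below that at 0 d at each of 1, 3, 5 and 7 d, which is at least 4-fold in FPKM + 1, and when its mean FPKM at 0 d was below 700. A further ID was left out by the same choice. The 101 members came from 29293 annotated gene IDs in a table of 32876 IDs. Since the differences from 0 d chose the members, they are given below as a description, without a test.

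The plants were rooted cuttings of 1 cultivar, so they share a genotype, and were grown with days at 30 °C and nights at 20 °C. The heat groups had been treated at 45 °C in the light period for 1, 3, 5 or 7 d, and the control group is 0 d of the same treatment. The methods describe the sixth leaf from the top, taken at 0, 1, 3 and 5 d. The 7 d libraries are known from the labels alone, which give the heat stress but no temperature. Each of the 5 groups had 3 libraries, a, b and c, making 15 in all, and the FPKM values of a gene are given below in that order within each day. No library came from unheated plants at 1 to 7 d, so heat and the passing of time cannot be told apart. The methods give no hour of sampling, and a difference in time of day between groups was not tested. The RNA is from whole leaves, and fewer cells of a type and less RNA per cell cannot be told apart either.

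Anthocyanins and other flavonoids are made from phenylalanine through the phenylpropanoid pathway. They colour young leaves and screen them from ultraviolet light. Expanding leaves loosen and rebuild their cell walls and cover the epidermis with cutin and wax. Leaves also reduce nitrate to ammonium and bind it into glutamine. Genes listed for each of these activities were among the members. Of the 101 members, 48 were listed by the study under a pathway or process and 9 were paired with a LOC name, whereas 49 carried neither. The lists used for ‘HS’ were picked by the study on libraries of this experiment, so a member's place in one is no independent evidence of its direction.

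An FPKM of at least 1 was reached by 17371 to 18313 genes in each library, and FPKM summed to between 539846 and 572468. Relative depth, taken from the step size of the lowest FPKM values, ranged from 0.901 to 1.31 of that of library a at 0 d. Replicate a stood apart at every day. Pearson's r across 19925 genes on the log2 scale was 0.966 to 0.969 between libraries b and c of a day, but 0.906 to 0.946 between a and either of the others. Genes are not independent replicates, and these r values describe the libraries only. Counts of members called are therefore also given without 1 replicate letter. Those without replicate a rest on b and c alone, whose independence was not tested, so a higher count there is no stronger evidence.

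Mean FPKM of the members at 0 d ran from 4.82 to 334, with a median of 24.0. It was 100 or more for 17 members and 10 or less for 11. Summed over the members, FPKM was 5063, 5823 and 5596 in the libraries at 0 d. It was 644, 652 and 662 at 1 d, 1021, 398 and 453 at 3 d, 419, 288 and 303 at 5 d, then 569, 957 and 894 at 7 d. Every heat library lay far below every 0 d library. At 3 d library a was the high one, and at 7 d it was the low one.

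**Figure D1:**
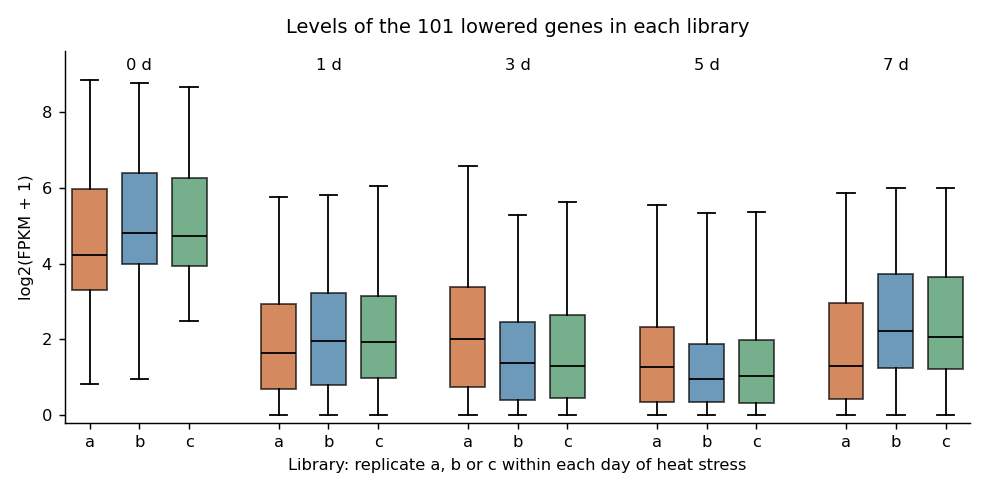
Levels of the 101 members in each of the 15 libraries, as log2(FPKM + 1) on the vertical axis, with libraries a, b and c side by side within each day. Boxes span the quartiles, the line is the median and whiskers reach the lowest and highest member. Medians of FPKM were 0.945 to 1.41 at 5 d, against 17.6 to 27.1 at 0 d. At 7 d library a (1.48) stayed below b (3.67) and c (3.18).

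The median log2 difference of the members from 0 d was -2.63, -2.99, -3.40 and -2.56 after 1, 3, 5 and 7 d, beside medians of 0.04, 0.12, 0.10 and 0.04 over all genes tested. Averaged over the 4 heat days, the difference ran from -5.42 in gene20303 to -2.19 in gene28673. A total of 99 of the 101 members passed a filter of FPKM 1 or more in at least 3 libraries, which gene28673 and gene8694 did not and which a gene can pass through its 0 d libraries alone. With limma, at an adjusted p up to 0.01 and at least a 2-fold change, 92 of the 99 were called lower at 1 d, where 5.68% of all genes tested were. At 3 d 93 were called lower (6.39% of all genes tested), at 5 d 97 (8.79%) and at 7 d 89 (4.88%). The rule fixed these counts, and nothing is read from them. Without replicate a 85, 86, 87 and 86 of 89 members were called lower after 1, 3, 5 and 7 d, where 7.93%, 9.45%, 11.7% and 5.82% of all genes were. Without replicate b the counts were 13, 32, 56 and 10 of 88 members, where 0.125%, 0.678%, 2.01% and 0.125% of all genes were called lower. Without replicate c they were 15, 32, 58 and 5 of 88, where the shares of all genes were 0.225%, 0.774%, 2.29% and 0.0523%. Over all genes, 1501 were called higher and 1274 lower at 3 d, or 1127 and 1587 with median-of-ratios scaling, and 1850 and 1751 at 5 d, or 1480 and 2082.

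In 99 of the 101 members every heat library was below every 0 d library, as in 12.8% of all genes tested. The rule bears on this count too. The exceptions were gene7779 and gene10448. gene7779, which has no name or listed process and is named here because of this count, had FPKM values of 2.80, 33.4 and 31.9 at 0 d, 0.381, 0.736 and 0.764 at 1 d, 0, 0.102 and 0.117 at 3 d, 0.105, 0 and 0.209 at 5 d, then 0.0466, 5.35 and 4.57 at 7 d. At 7 d libraries b and c exceeded library a of 0 d, which was itself far below the other 0 d libraries. gene10448, paired with LOC107418081 and described as a 7-deoxyloganetin glucosyltransferase, a sugar-transferring enzyme known from Gardenia, had 10.9, 23.6 and 19.4 at 0 d, 0, 8.28 and 8.75 at 1 d, 3.90, 0.00116 and 8.99 at 3 d, 5.96, 0.799 and 1.10 at 5 d, then 1.22, 0 and 12.1 at 7 d. Its heat libraries ran between 0 and 12.1, and library c at 7 d exceeded library a at 0 d. Such enzymes come in large families of like copies, and whether reads were divided among copies was not tested.

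The largest falls belonged to genes with very different annotation. gene20303, which has no name or listed process, had FPKM values of 67.4, 91.4 and 89.9 at 0 d, 1.26, 2.29 and 2.90 at 1 d, 1.03, 0.306 and 0.390 at 3 d, 0.634, 0.131 and 0.511 at 5 d, then 0.483, 2.15 and 1.02 at 7 d. All 12 heat libraries were at 2.90 or less, and the log2 differences were -4.76, -5.75, -5.88 and -5.30. gene15061, listed for anthocyanin biosynthesis, photoprotection and the responses to sucrose and karrikin, had 234, 191 and 171 at 0 d, 12.3, 9.44 and 7.81 at 1 d, 3.16, 7.47 and 6.80 at 3 d, 4.75, 8.42 and 8.82 at 5 d, then 18.7, 10.2 and 8.70 at 7 d. Its heat libraries were spread from 3.16 to 18.7 with no library standing far out, and its log2 differences were -4.21, -4.93, -4.61 and -3.94.

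gene15699, listed for the plant circadian rhythm, was among the most abundant members, with 456, 267 and 270.5 at 0 d, 20.7, 7.48 and 8.47 at 1 d, 71.6, 5.39 and 4.93 at 3 d, 28.2, 7.26 and 8.04 at 5 d, then 35.3, 34.0 and 33.0 at 7 d. Library a at 3 d was far above the other libraries of that day, while at 7 d all 3 libraries were alike. gene23508, listed for RNA degradation, had 63.2, 68.2 and 67.1 at 0 d, 1.23, 1.40 and 0.608 at 1 d, 3.75, 0.580 and 48.4 at 3 d, 0.782, 1.91 and 5.08 at 5 d, then 0.984, 58.3 and 1.73 at 7 d. Single libraries, c at 3 d and b at 7 d, came close to the 0 d level while their partners stayed under 4, so its means at these days describe no library. The log2 differences were -4.74, -4.52, -4.63 and -3.20 for gene15699 and -5.03, -3.22, -4.41 and -3.29 for gene23508.

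**Figure D2:**
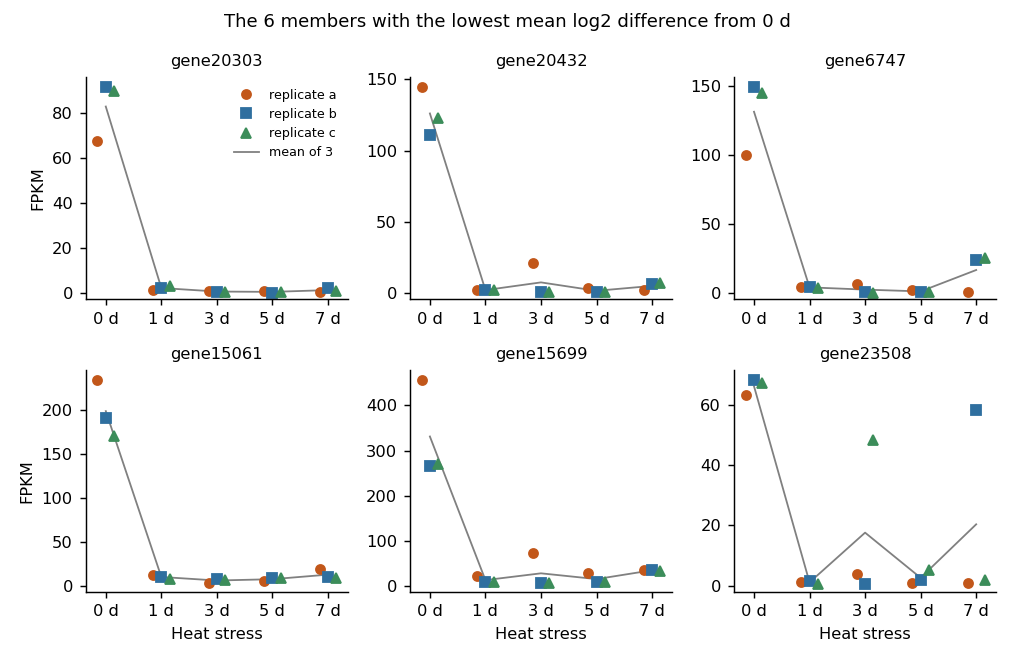
FPKM of the 6 members with the lowest mean log2 difference from 0 d, by day of heat stress. Points are single libraries (circles a, squares b, triangles c) and the line joins the means of 3, each panel having its own linear scale. gene20303 and gene15061 stayed low throughout, gene23508 had single high libraries (48.4 at 3 d and 58.3 at 7 d), and gene6747 was at 24.1 and 24.99 in libraries b and c at 7 d but at 0.625 in a.

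In all, 6 members were listed for flavonoid or anthocyanin biosynthesis, gene15061 among them. gene11393 (LOC107419096) was described as a flavonoid 3'-monooxygenase, the enzyme that adds a hydroxyl group to the flavonoid B ring, and had FPKM values of 26.6, 87.8 and 75.0 at 0 d, 2.002, 1.79 and 1.77 at 1 d, 0.890, 4.22 and 3.91 at 3 d, 2.04, 1.76 and 2.92 at 5 d, then 7.68, 7.00 and 6.29 at 7 d. Library a was the low one at 0 d, yet it lay above all heat libraries. gene12386 (LOC107420293) was described as a bifunctional dihydroflavonol 4-reductase/flavanone 4-reductase, an enzyme on the way from dihydroflavonols to anthocyanins. It had 33.7, 31.6 and 28.0 at 0 d, 1.23, 6.17 and 7.51 at 1 d, 1.51, 4.52 and 5.44 at 3 d, 0.549, 0.469 and 0.870 at 5 d, then 3.05, 4.53 and 4.15 at 7 d. At 1 d and 3 d library a was well below b and c, and at 5 d all 3 libraries were under 1.

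gene19560, listed for flavonoid biosynthesis and the circadian rhythm, had 62.5, 109.7 and 81.5 at 0 d, 6.64, 11.2 and 9.19 at 1 d, 4.64, 11.5 and 10.0 at 3 d, 1.25, 1.68 and 2.34 at 5 d, then 6.73, 13.3 and 11.5 at 7 d. Its 1 d, 3 d and 7 d libraries overlapped, and its 5 d libraries were below all of them. gene8558, also on the flavonoid list and on that for the response to karrikin, had 8.92, 19.7 and 15.3 at 0 d, 0.316, 2.85 and 2.29 at 1 d, 0.217, 1.71 and 0.859 at 3 d, 0.0456, 0.408 and 0.480 at 5 d, then 1.82, 0.315 and 0.368 at 7 d. gene6750, listed for anthocyanin biosynthesis, had 59.2, 83.3 and 79.9 at 0 d, 11.2, 19.0 and 22.2 at 1 d, 11.1, 15.9 and 15.6 at 3 d, 6.47, 6.57 and 7.27 at 5 d, then 10.3, 14.9 and 13.5 at 7 d. It was the least lowered of the 6, with log2 differences of -2.06, -2.30, -3.26 and -2.43, against -4.33, -3.97, -4.16 and -2.84 for gene11393, -2.64, -2.84, -4.30 and -2.72 for gene12386 and -3.08, -3.18, -4.94 and -2.90 for gene19560.

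The median of the 4 members on the flavonoid list was -2.86, -3.11, -4.23 and -2.87 after 1, 3, 5 and 7 d. For 3 of these 4 the lowest heat day was 5 d. The 3 members listed for the response to sucrose, and for ‘HR’ also for the response to UV-B, were gene15061, gene11393 and gene6750, all of them on the anthocyanin list as well. At the entry of the pathway, gene24221, listed for the breakdown of phenylalanine and the making of cinnamic acid, had 28.1, 24.4 and 24.0 at 0 d, 2.39, 5.29 and 4.86 at 1 d, 3.996, 4.97 and 5.22 at 3 d, 1.85, 1.36 and 2.02 at 5 d, then 3.17, 6.21 and 6.16 at 7 d. It was outside the naming rule and was picked after its values were seen. Its heat libraries lay between 1.36 and 6.21, and the 5 d libraries were the lowest.

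Nitrogen metabolism held 3 members. gene13116, listed for nitrate assimilation and for oxidation-reduction, had FPKM values of 223, 161 and 162 at 0 d, 30.5, 17.8 and 17.9 at 1 d, 93.4, 9.13 and 10.0 at 3 d, 14.1, 1.53 and 1.71 at 5 d, then 19.4, 40.8 and 40.8 at 7 d. gene25993, listed for nitrate assimilation as well, had 169, 132 and 121 at 0 d, 22.4, 14.8 and 14.2 at 1 d, 69.6, 7.49 and 8.23 at 3 d, 13.4, 1.04 and 1.08 at 5 d, then 16.2, 34.5 and 33.4 at 7 d. In both genes library a was the highest at 0 d, 1 d, 3 d and 5 d and the lowest at 7 d, and at 3 d it was several times above b and c. gene26092, listed for glutamine biosynthesis, which joins ammonium to glutamate, had 44.4, 83.1 and 70.0 at 0 d, 8.74, 13.01 and 9.12 at 1 d, 15.6, 13.6 and 8.98 at 3 d, 5.59, 7.84 and 2.99 at 5 d, then 9.30, 12.7 and 23.6 at 7 d. It did not share that order of the libraries.

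At 5 d the log2 difference from 0 d was -5.27 for gene13116 and -5.15 for gene25993, against -3.40 for gene26092. At 3 d the corresponding values were -3.05, -2.99 and -2.27, and at 7 d they were -2.46, -2.34 and -2.10. The 2 nitrate assimilation genes thus had their lowest day mean at 5 d, while their means at 3 d rest on libraries that differ widely.

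**Figure D3:**
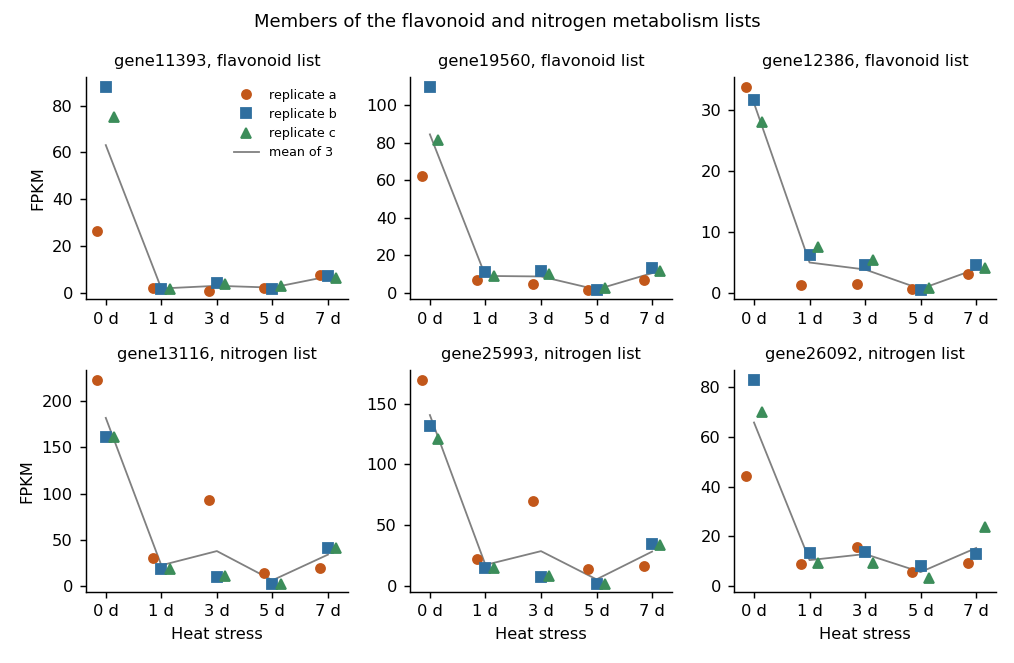
FPKM by day of heat stress of 3 members of the flavonoid list (upper row) and the 3 members of the nitrogen metabolism list (lower row). Points are single libraries (circles a, squares b, triangles c), the line joins the means of 3, and each panel has its own linear scale. gene19560 and gene12386 were lowest at 5 d, and gene13116 and gene25993 had a high library a at 3 d (93.4 and 69.6).

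A set of 4 members was listed for syncytium formation and 4 for plant-type cell wall organization, with 3 genes on both lists. Wall organization includes the loosening that lets a growing cell expand. gene20432, also listed for the response to red light, had 144, 111 and 123 at 0 d, 1.81, 2.03 and 1.94 at 1 d, 21.2, 0.332 and 0.542 at 3 d, 3.36, 0.507 and 0.417 at 5 d, then 1.73, 6.27 and 6.62 at 7 d. gene6747 had 99.9, 149 and 145 at 0 d, 4.25, 3.94 and 3.76 at 1 d, 6.38, 0.490 and 0.132 at 3 d, 1.93, 0.407 and 0.778 at 5 d, then 0.625, 24.1 and 24.99 at 7 d. Both were high in every 0 d library and lay between 1.81 and 4.25 at 1 d, and their log2 differences were -5.43, -5.15, -5.91 and -4.57 for gene20432 and -4.71, -5.81, -6.07 and -3.68 for gene6747. At 3 d library a (21.2) was far above b and c in gene20432, and at 7 d library a (0.625) was far below them in gene6747.

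gene4389, on the syncytium list and on the wall loosening list for ‘HR’, had 17.5, 47.1 and 42.8 at 0 d, 8.35, 6.24 and 5.40 at 1 d, 2.32, 0.0831 and 0.317 at 3 d, 1.68, 0.0480 and 0.0188 at 5 d, then 0.222, 7.39 and 6.35 at 7 d. At 3 d and 5 d libraries b and c were under 0.4, and at 7 d they were back near their 1 d values while library a was not. gene21996 had 11.9, 15.3 and 16.3 at 0 d, 2.12, 2.81 and 2.81 at 1 d, 3.54, 0.834 and 0.809 at 3 d, 2.5003, 1.25 and 1.41 at 5 d, then 0.700, 3.83 and 3.79 at 7 d, and gene32056, listed for wall organization and brassinosteroid biosynthesis, had 13.7, 25.3 and 22.03 at 0 d, 1.87, 3.47 and 4.39 at 1 d, 5.10, 3.37 and 3.72 at 3 d, 1.80, 4.11 and 4.46 at 5 d, then 2.46, 2.49 and 2.85 at 7 d. These 2 were less abundant at 0 d and less lowered, with log2 differences of -2.11, -2.64, -2.53 and -2.18 and -2.34, -2.05, -2.28 and -2.53. The list medians of syncytium formation were -3.44, -4.74, -5.24 and -3.34 after 1, 3, 5 and 7 d. gene10633 (LOC107418263), described as a probable pectate lyase, an enzyme that cuts the pectin of the wall, had 12.6, 50.5 and 47.3 at 0 d, 1.65, 2.94 and 2.89 at 1 d, 3.88, 0.399 and 0.224 at 3 d, 2.96, 0.712 and 0.599 at 5 d, then 0.682, 2.69 and 2.85 at 7 d. Libraries b and c were lowest at 3 d and 5 d, and library a was lowest at 7 d.

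Transport and abundant genes followed. gene28984, listed for transmembrane transport, had FPKM values of 152, 418 and 393 at 0 d, 49.3, 39.1 and 36.8 at 1 d, 47.9, 11.6 and 12.3 at 3 d, 15.5, 12.8 and 13.99 at 5 d, then 42.0, 51.7 and 47.7 at 7 d. gene22186, with no name or listed process, had nearly the same ones, 168, 434 and 400.4 at 0 d, 51.4, 38.5 and 45.9 at 1 d, 61.7, 11.7 and 9.81 at 3 d, 16.6, 15.8 and 12.0 at 5 d, then 36.1, 41.2 and 41.1 at 7 d. With gene15699 these 2 had the highest mean FPKM at 0 d, and both had their lowest day at 5 d. gene33092, listed for sulfate transport, had 66.1, 167 and 173 at 0 d, 25.5, 11.5 and 11.3 at 1 d, 18.6, 10.5 and 10.4 at 3 d, 17.8, 7.27 and 8.75 at 5 d, then 12.6, 44.998 and 45.4 at 7 d. gene19229 had 77.6, 46.9 and 69.2 at 0 d, 6.37, 3.77 and 3.51 at 1 d, 9.37, 4.31 and 4.66 at 3 d, 5.93, 5.15 and 4.48 at 5 d, then 7.34, 8.55 and 8.12 at 7 d, and gene21491 had 22.9, 32.9 and 30.7 at 0 d, 5.08, 3.67 and 3.59 at 1 d, 4.02, 1.62 and 1.87 at 3 d, 2.70, 0.943 and 1.06 at 5 d, then 3.71, 4.07 and 4.09 at 7 d. In gene33092 library a lay far below b and c at 7 d, which was not so in the other transport genes.

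gene25593, unnamed, was at 37.8 to 65.3 in the heat libraries, against 316, 219 and 224 at 0 d. It had the highest FPKM of all members in 10 of the 12 heat libraries. gene15685, listed for the biosynthesis of myo-inositol hexakisphosphate, the phosphate store of plants, and for the response to hypoxia, had 210.1, 174 and 178 at 0 d, 13.95, 18.8 and 18.5 at 1 d, 32.4, 7.23 and 8.02 at 3 d, 12.3, 5.11 and 6.46 at 5 d, then 24.1, 26.7 and 25.9 at 7 d. In both genes the heat libraries lay far below the 0 d libraries.

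On the starch and sucrose list, gene3843, listed for sucrose metabolism, had 102, 72.8 and 75.4 at 0 d, 5.58, 10.9 and 9.89 at 1 d, 18.5, 10.6 and 11.7 at 3 d, 8.42, 2.66 and 3.38 at 5 d, then 7.57, 12.7 and 11.8 at 7 d. gene574, listed for the making of trehalose, had 28.4, 21.2 and 22.6 at 0 d, 4.80, 5.12 and 5.71 at 1 d, 3.01, 3.81 and 3.10 at 3 d, 2.03, 1.83 and 1.91 at 5 d, then 2.60, 3.63 and 3.18 at 7 d. Its replicates were close at each day, and by day means its heat levels were ordered 1 d, 3 d, 7 d and 5 d, of which 3 d and 7 d overlapped. gene28071, which is also on the phenylpropanoid list, had 5.28, 22.6 and 20.02 at 0 d, 0.621, 0.616 and 0.571 at 1 d, 1.49, 0.345 and 0.519 at 3 d, 0.0695, 0.414 and 0.671 at 5 d, then 0.622, 0.573 and 0.719 at 7 d. Its heat libraries lay between 0.0695 and 1.49, all but 1 of them under 1.

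gene14909, listed for glucosinolate biosynthesis and oxidation-reduction, had 78.3, 112 and 99.8 at 0 d, 8.39, 31.3 and 33.4 at 1 d, 10.8, 1.83 and 1.45 at 3 d, 1.41, 1.55 and 1.30 at 5 d, then 14.3, 14.5 and 13.8 at 7 d. Its libraries b and c at 1 d were the highest of the heat libraries, and its log2 differences were -2.15, -4.48, -5.32 and -2.67. gene14733, listed for triterpenoid biosynthesis and cuticle development, had 67.4, 40.4 and 44.0 at 0 d, 9.06, 8.32 and 7.40 at 1 d, 2.497, 3.07 and 3.31 at 3 d, 7.70, 7.34 and 7.46 at 5 d, then 10.2, 7.64 and 8.25 at 7 d. Its 3 d libraries lay below all other libraries. gene30486, listed for cutin, suberine and wax biosynthesis, had 11.3, 11.0 and 12.3 at 0 d, 0.205, 1.33 and 1.15 at 1 d, 0.485, 0 and 0 at 3 d, 0.0442, 0.0408 and 0.0472 at 5 d, then 0.976, 2.37 and 1.47 at 7 d. At 5 d all of its libraries were under 0.05.

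Members listed for proteolysis were low at 0 d and lower under heat. gene28672 had 3.21, 15.6 and 20.1 at 0 d, 1.55, 1.40 and 1.70 at 1 d, 0.145, 0.0174 and 0 at 3 d, 0.0879, 0.0502 and 0.262 at 5 d, then 0.883, 0.131 and 0.356 at 7 d, and gene14109 had 2.27, 16.96 and 19.3 at 0 d, 0.478, 0.711 and 1.18 at 1 d, 0.176, 0.185 and 0.312 at 3 d, 0.348, 0.278 and 0.266 at 5 d, then 0.258, 0.227 and 0.330 at 7 d. In both, library a at 0 d was several times below b and c. gene25683 ranged over 0.695 to 3.76 under heat, against 16.3 to 23.4 at 0 d, and gene1783 over 0.0372 to 0.681 under heat, against 4.49 to 5.25 at 0 d. The first 3 of these 4 are also on the ‘HR’ list for negative regulation of catalytic activity.

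Among members listed for the responses to salt stress or karrikin, gene27642, which the study lists for sulfur and cysteine metabolism and for water transport, had 180.2, 112 and 115 at 0 d, 26.6, 20.7 and 22.8 at 1 d, 20.3, 11.6 and 14.6 at 3 d, 15.03, 7.06 and 8.97 at 5 d, then 15.3, 23.6 and 25.3 at 7 d. gene23173 was at 0.767 to 2.26 under heat, against 8.36, 16.3 and 14.7 at 0 d. gene8681, listed for the degradation of branched-chain amino acids, was at 0.989 to 3.43 under heat, against 14.4 to 16.2 at 0 d. In each of these genes every heat library lay below every 0 d library.

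Another 5 members are known by a LOC name and description outside these lists. gene1168 (LOC107419951), a putative DNA-binding transcription factor, had 18.8, 27.1 and 25.7 at 0 d, 3.92, 2.95 and 3.25 at 1 d, 4.31, 1.62 and 1.28 at 3 d, 1.51, 0.945 and 1.12 at 5 d, then 1.48, 4.80 and 4.72 at 7 d. gene12360 (LOC107420081), described as the pollen-specific protein SF21 after a sunflower gene, was at 0.732 to 4.66 under heat, against 17.6, 18.9 and 19.6 at 0 d. gene11700 (LOC107419438), described as a purple acid phosphatase, an enzyme that frees phosphate, was at 0.944 or less under heat, against 4.48 to 8.04 at 0 d. gene12416 (LOC107420254) and gene10139 (LOC107417707) encode hypothetical proteins. gene12416 was at 3.24 to 7.98 under heat, against 26.7 to 32.0 at 0 d, and gene10139 was at 10.6 to 44.5 under heat, against 86.2 to 117 at 0 d. None of these 5 had a heat library within the range of its 0 d libraries.

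Outside the naming rule, and picked after their values were seen, some further members complete the account. gene22615, listed for phenylpropanoid biosynthesis and the breakdown of hydrogen peroxide, had 141, 179 and 173 at 0 d, 34.7, 19.6 and 19.1 at 1 d, 44.96, 25.1 and 26.3 at 3 d, 13.2, 1.51 and 2.11 at 5 d, then 2.73, 20.8 and 19.5 at 7 d. Its 1 d and 3 d libraries all lay above its 5 d libraries. gene22416, listed for plant hormone signal transduction, had 60.4, 93.5 and 82.4 at 0 d, 14.7, 8.35 and 9.85 at 1 d, 22.5, 4.55 and 5.05 at 3 d, 6.82, 0.316 and 0.701 at 5 d, then 2.19, 36.1 and 36.8 at 7 d, and at 7 d its library a was far below b and c. gene9110, on the list for carotenoids, pigments that protect chlorophyll from excess light, had 156, 124 and 128 at 0 d, 17.6, 26.5 and 25.95 at 1 d, 36.6, 26.4 and 26.7 at 3 d, 21.6, 23.4 and 26.4 at 5 d, then 22.3, 39.8 and 39.1 at 7 d. Its heat libraries lay between 17.6 and 39.8.

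The other unnamed members varied as widely. gene27867 had 163, 84.9 and 81.6 at 0 d, 11.7, 11.8 and 12.96 at 1 d, 43.9, 0.410 and 0.562 at 3 d, 2.04, 0.558 and 0.846 at 5 d, then 5.37, 30.3 and 34.4 at 7 d. At 3 d library a was the high one, and at 7 d libraries b and c were. gene9679 had 16.2, 61.6 and 54.8 at 0 d, 1.84, 4.57 and 4.08 at 1 d, 0.257, 0.183 and 0.604 at 3 d, 0.817, 0.831 and 1.09 at 5 d, then 1.26, 3.18 and 3.11 at 7 d, with its lowest libraries at 3 d. gene14575 was at 8.87 to 27.6 under heat, against 215, 94.2 and 105 at 0 d. gene23263 was at 11.1, 14.5 and 0.128 at 1 d, against 15.5, 37.6 and 36.5 at 0 d, so a single library held its low mean at 1 d.

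Several members were listed at 0 in heat libraries, from 2 members in library c at 1 d to 11 in library b at 5 d. None was in a 0 d library. The rule bears on this contrast, since it took genes with high values at 0 d and low ones under heat. gene3216, listed for photosynthesis, was listed at 0 in 11 of the 12 heat libraries and at 1.17 in the last, c at 7 d, against 8.15, 28.4 and 5.22 at 0 d. gene30061, on the cutin, suberine and wax list, was listed at 0 in 11 of the 12 heat libraries and at 0.0411 in c at 5 d, against 4.71, 8.48 and 5.85 at 0 d. These 2 genes were singled out after their values were seen, and a 0 in a table of FPKM can be a failed estimate.

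Consecutive IDs were borne by 7 members, gene406, gene407 and gene408, gene23173 and gene23174, and gene28672 and gene28673. Among ID pairs of consecutive number that both carry a LOC name, 145 of 148 lay within 5 places of each other in the RefSeq gene table, so consecutive IDs mostly stand for neighbours. gene406 had 3.55, 17.4 and 16.8 at 0 d, 1.01, 0.0469 and 0.204 at 1 d, 1.01, 0.805 and 0.367 at 3 d, 0.289, 0.444 and 0.106 at 5 d, then 0.214, 1.17 and 1.25 at 7 d. gene407 had 4.21, 21.6 and 22.4 at 0 d, 0.786, 0.0839 and 0.0687 at 1 d, 1.20, 0.669 and 0.641 at 3 d, 0.280, 0.0578 and 0.411 at 5 d, then 0.292, 1.93 and 1.92 at 7 d, and gene408 had 7.82, 40.1 and 30.9 at 0 d, 1.97, 0.120 and 0.121 at 1 d, 2.40, 1.34 and 1.72 at 3 d, 1.16, 1.27 and 0.718 at 5 d, then 0.363, 2.98 and 2.97 at 7 d. All 3 genes shared a low library a at 0 d and a high one at 1 d. Whether these neighbours are copies that share reads was not tested.

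The members nearest the threshold were gene10139, gene574 and gene25593, with highest log2 differences of -2.003, -2.005 and -2.01. Just outside it lay gene18453, gene21997 and gene6845 at -1.996, -1.994 and -1.994. A further 10 newly discovered IDs passed the same thresholds and were not counted. The most lowered of them, newGene_5280, was at 1.69 or less under heat, against 18.7, 41.2 and 37.9 at 0 d, and the most abundant, newGene_4556, was at 3.46 to 99.8 under heat, against 257, 286 and 378 at 0 d.

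Among the heat days, 5 d was the lowest for 69 of the 101 members (68.3%), 1 d for 13, 3 d for 12 and 7 d for 7. Of all genes tested, 24.2% were lowest at 5 d, while the shares for 1, 3 and 7 d were 31.1%, 14.1% and 30.7%. The highest heat day was 7 d for 44 members, 1 d for 35, 3 d for 20 and 5 d for 2. Of all genes tested, 20.5% were highest at 7 d, and for 1, 3 and 5 d the shares were 19.9%, 28.0% and 31.6%. The steps between heat days come from 1 limma fit of 15 libraries with p-values adjusted over 19925 genes. They use the heat values that the rule held at least 2 below 0 d, and 19 of the 99 members tested reached an FPKM of 1 in fewer than 3 heat libraries. The counts, medians and adjusted p-values of members below are therefore a description of these members and support nothing further.

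Most members had higher values at 7 d than at 5 d. At 7 d against 5 d the members' median log2 difference was 0.61, beside -0.08 for all genes tested, and it was above 0 in 88 of 99 members, against 41.8% of all genes. All genes tested include genes raised by heat, so they are no like background. Non-members on ‘HR’ lists had medians against 0 d of -1.36 at 5 d and -0.71 at 7 d for flavonoid genes. They were -1.44 and -0.81 for nitrogen metabolism, -1.18 and -0.83 for carbon fixation, but 1.28 and 0.91 for protein processing. A rise from 5 d to 7 d is thus not particular to the members. At an unadjusted p of 0.05 or less 43 of the 99 members were higher and none was lower, where 10.6% of all genes were higher and 16.9% lower. Among the 80 members that reached an FPKM of 1 in 3 or more heat libraries, a subset chosen after seeing the data, 76 were above 0 and 41 were higher at that p, beside 41.1% and 10.4% of 19408 genes so filtered. After adjustment 1 member was called higher, where 0.386% of all genes tested were, and none lower (0.296% of all genes). This was gene19560, at 6.73, 13.3 and 11.5 at 7 d, against 1.25, 1.68 and 2.34 at 5 d. Its log2 difference was 2.03 (SE 0.33, adjusted p = 0.00714 by limma, n = 3 each), and every 7 d library was above every 5 d library. Over the alternatives its adjusted p ran from 9.96e-05 to 0.420, and the highest values came without replicate b or c.

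The differences at 7 d against 5 d were larger without replicate a. At 7 d library a had the lowest value of the day in 77 of the 101 members (76.2%), against 55.1% of all genes tested. Without replicate a, 44 of 89 members were called higher at 7 d than at 5 d, where 6.69% of all genes were, and the median was 1.01. That fit keeps only b and c, the closer pair of each day, so nothing is read from its count of calls. Without replicate b or c no member was called, with medians of 0.58 and 0.67. Of all genes, 0% were called without replicate b, and 0% higher and 0.00523% lower without replicate c. These 2 fits called almost no gene, so the lack of calls is no trait of the members. gene14909 was at 14.3, 14.5 and 13.8 at 7 d, against 1.41, 1.55 and 1.30 at 5 d, a log2 difference of 2.65 (SE 0.55, adjusted p = 0.0162). gene30486 was at 0.976, 2.37 and 1.47 at 7 d, against 0.0442, 0.0408 and 0.0472 at 5 d, a difference of 1.28 (SE 0.26, adjusted p = 0.0162). Both missed the threshold of 0.01, although their libraries of the 2 days did not overlap.

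**Figure D4:**
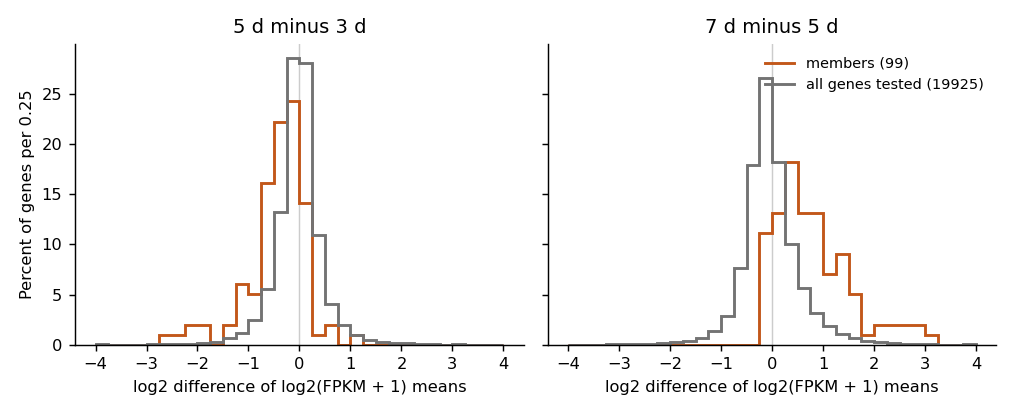
Distribution of log2 differences between successive heat days for the 99 members tested and for all 19925 genes tested, as the percent of each set per 0.25 on the log2(FPKM + 1) scale. At 5 d minus 3 d (left) the members' median was -0.31 and that of all genes -0.02. At 7 d minus 5 d (right) they were 0.61 and -0.08.

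Between 3 d and 1 d 1 member was called lower, where 0.1% of all genes tested were, and none higher (0.12% of all genes). This was gene14733, at 2.497, 3.07 and 3.31 at 3 d, against 9.06, 8.32 and 7.40 at 1 d. Its log2 difference was -1.23 (SE 0.18, adjusted p = 0.00561 by limma, n = 3 each), and the 2 days did not overlap. Over the alternatives its adjusted p ran from 0.000221 to 0.587. At 5 d against 3 d gene14733 was higher by 1.11 (SE 0.18, adjusted p = 0.0132), which missed the threshold. The members' median at 3 d minus 1 d was -0.19, beside 0.08 for all genes tested.

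At 5 d against 3 d no member was called lower or higher by limma, where 0.0703% and 0.11% of all genes tested were. At an unadjusted p of 0.05 or less 18 of the 99 were lower and 1 was higher, where 8.21% and 7.21% of all genes were, and 81 had a negative difference, against 52.5% of all genes. gene19560 was at 1.25, 1.68 and 2.34 at 5 d, against 4.64, 11.5 and 10.0 at 3 d, a log2 difference of -1.76 (SE 0.33, adjusted p = 0.0281). In 71 of the 101 members library a was the highest of 3 d (70.3%), against 33.5% of all genes tested. Without replicate a, 10 of 89 members were called lower and 1 higher at 5 d than at 3 d, where 2.88% and 1.89% of all genes were. Likewise, 19 were lower and 1 higher at 3 d than at 1 d, where 2.24% and 2.66% of all genes were.

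At 7 d against 1 d no member was called by limma, where 0.221% of all genes tested were higher and 0.151% lower. At an unadjusted p of 0.05 or less 5 were higher and 1 was lower, where 9.24% and 8.82% of all genes were. The median difference was 0.06, with 53 members above 0 and 45 below. Without replicate a, 15 of 89 members were called higher and 3 lower, where 3.90% and 1.99% of all genes were. gene11393 was at 7.68, 7.00 and 6.29 at 7 d, against 2.002, 1.79 and 1.77 at 1 d, a difference of 1.48 (SE 0.42, adjusted p = 0.0943), and gene574 was at 2.60, 3.63 and 3.18 at 7 d, against 4.80, 5.12 and 5.71 at 1 d, a difference of -0.59 (SE 0.15, adjusted p = 0.0589).

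The other genes of these pathways were taken from the study's lists for ‘HR’, the heat-resistant cultivar, which were picked on libraries other than these. They hold genes that the study called changed by heat in ‘HR’, not whole pathways, so shares over all genes are no like background for them. Of the 17 other flavonoid genes tested, 7, 7, 9 and 4 were called lower at 1, 3, 5 and 7 d against 0 d, and 1, 1, 0 and 1 higher, with a median log2 difference of -1.36 at 5 d. Of 18 other nitrogen metabolism genes, 8, 8, 10 and 8 were lower and 1, 1, 0 and 0 higher, with a median of -1.44 at 5 d. Over all genes tested the shares called higher were 4.49%, 7.53%, 9.28% and 4.14%, and those called lower are given above. For water transport, which lists gene27642, 7, 8, 11 and 6 of 17 others were lower and 0 higher. All 6 listed genes of cutin biosynthesis, none of them a member, were called lower at 3 d, and 3, 4 and 4 at 1, 5 and 7 d. These counts rest on all 3 libraries, and fits without a letter were added for these lists after seeing the data. At 5 d, without replicates a, b and c in turn, 9, 3 and 4 flavonoid genes, 13, 2 and 1 nitrogen metabolism genes, 12, 6 and 6 water transport genes and 5, 0 and 0 cutin genes were called lower. At 3 d, 6, 0 and 0 cutin genes were.

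Of the 59 other starch and sucrose genes, 9, 10, 16 and 7 were lower and 7, 9, 9 and 6 higher, and of 42 other phenylpropanoid genes 12, 13, 17 and 9 were lower and 3, 6, 5 and 5 higher. The copies of these 2 lists, and of that for protein processing, are shortened. Carbon fixation, with no member, had 17, 21, 19 and 12 of 34 genes called lower and 0 higher, or at 5 d 22, 7 and 9 of 33 lower without replicates a, b and c in turn. Of 27 photosynthesis genes other than gene3216, 3, 5, 7 and 1 were lower and 5, 1, 1 and 3 higher. At 5 d, without replicates a, b and c in turn, 25, 3 and 3 starch and sucrose genes were lower and 9, 4 and 3 higher. Of phenylpropanoid genes 18, 4 and 5 were lower and 5, 2 and 1 higher. Of photosynthesis genes 6, 0 and 1 were lower and 1, 1 and 1 higher. Protein processing in the endoplasmic reticulum, a pathway that holds chaperones, had no member, and 16, 26, 27 and 18 of 56 genes were called higher at 1, 3, 5 and 7 d, and 5, 4, 4 and 2 lower. At 5 d, without replicates a, b and c in turn, 29, 12 and 13 were higher.

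The leaf origin of the RNA was checked with 12 genes of photosystem subunits, chlorophyll-binding proteins and Rubisco, none of them a member. Their summed FPKM was 12111 to 17571 at 0 d, 28929 to 32796 at 1 d, 15048 to 21865 at 3 d, 14169 to 15208 at 5 d and 23038 to 28596 at 7 d, and none of the 12 was at 0 in all libraries. Genes of dividing cells (2 histone or cyclin genes) summed to 76.6 to 78.8 at 0 d, 42.6 to 61.0 at 1 d, 34.3 to 36.4 at 3 d, 29.4 to 30.1 at 5 d and 33.2 to 46.8 at 7 d. Those of epidermis and cuticle (15 genes, with gene30486 and gene30061 among them) summed to 106 to 123 at 0 d, 61.9 to 73.9 at 1 d, 44.9 to 69.3 at 3 d, 27.0 to 37.0 at 5 d and 59.7 to 78.7 at 7 d. Few IDs carry names, and no gene was found for vascular cells, root or senescing leaf, so those markers give no value. The list for pollen and flower held 1 gene, the member gene12360. The epidermis and cuticle sums were lowest at 5 d, as were those of dividing cells and most members. All these marker lists were drawn from genes that the study called changed, partly on these libraries, so they are no independent markers. The part of cell composition in the members' values was not tested.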

How the data were processed

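The 15 libraries were prepared from ‘HS’ leaves at 0, 1, 3, 5 and 7 d of treatment and sequenced by RNA-seq. Reads were cleaned by the authors, aligned to a jujube genome (Bowtie 2, TopHat 2) and assembled with Cufflinks. The authors deposited FPKM, with 1 value for each gene in each library. The submitters' processing notes name Trimmomatic 0.36 and FastQC. The genome build and the other versions are not given in the sources used here. Labels and methods differ on the extraction kit, the Illumina instrument and whether RNA was pooled. The methods state 15 plants per treated biological replicate, with leaves for RNA taken from a smaller number of plants picked at random. If libraries of a day share RNA, p-values measure a partly technical spread.

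No counts were used, so depth sets no interval, and precision was taken from the spread between 3 libraries. FPKM + 1 was log2 transformed, which understates changes of low genes. Genes reaching an FPKM of 1 in at least 3 libraries were tested with limma 3.58.1 (lmFit, eBayes with trend) in R 4.3.3, in 1 fit with 10 residual degrees of freedom and Benjamini-Hochberg adjustment over all of them. Calls needed an adjusted p up to 0.01 and at least a 2-fold change. Python 3.11.15, numpy 2.4.6, pandas 2.3.3 and matplotlib 3.10.9 were used for the rest. The fit was also run on simulated data of 19925 genes for 7 d minus 5 d. There the fit called 79 of 100 genes changed by 1.5 on the log2 scale, 92 of 100 changed by 2.5 and 0 unchanged genes. These counts are not for the members. How often the fit calls such changes at their low FPKM under heat, with replicate a apart from b and c, was not tested.

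The members and lists were chosen with earlier results of these data known. Named genes are the 6 members with the lowest mean difference from 0 d, the 6 most abundant at 0 d, those with a LOC name, the up to 4 with the largest change called in each step between heat days, the members of lists that hold 3 or more of them, and the 3 genes on either side of the threshold. LOC names and lists come from the study's tables, of which some are shortened, and LOC names were also looked up in a RefSeq gene table of another assembly, used for gene order only. Gene sequences were not used here. Alternatives were 0.1 added in place of 1, other scalings, no filter, no trend, other thresholds, the replicate letter as a block, and fits without 1 letter.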

Additional observations from a re-analysis of the deposited data

Results flagged for a closer look

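A pair of members was called in a step between heat days. The rule chose the members by these same heat values, so both calls are a description and support nothing further. gene14733, listed for triterpenoid biosynthesis and cuticle development, was lower at 3 d than at 1 d by a log2 difference of -1.23 (adjusted p = 0.00561 by limma), with 2.497, 3.07 and 3.31 FPKM at 3 d, against 9.06, 8.32 and 7.40 FPKM at 1 d. gene19560, listed for flavonoid biosynthesis and the circadian rhythm, was higher at 7 d than at 5 d by a log2 difference of 2.03 (adjusted p = 0.00714 by limma), with 6.73, 13.3 and 11.5 FPKM at 7 d, against 1.25, 1.68 and 2.34 FPKM at 5 d. Both steps had the same sign in every alternative run and lost their call without replicate b or c, that of gene14733 also with median-of-ratios scaling (adjusted p = 0.0102) and that of gene19560 also with no filter (adjusted p = 0.0139).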

How the results depend on the processing

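The choice of members depended most on the value added before the logarithm. With 0.1 in place of 1 the rule found 265 genes, among them all 101 members, whereas the other settings gave 98 to 113 (102 to 113 without 1 letter, sharing 76 to 86 of the members). Over all genes against 0 d, 2027, 2775, 3601 and 1796 were called at 1, 3, 5 and 7 d, and 4092, 5422, 6602 and 3796 with no minimum fold change. Without 1 letter these counts ranged from 60 to 2799 at 1 d, 382 to 3935 at 3 d, 971 to 4501 at 5 d and 24 to 2366 at 7 d, the highest being without replicate a, where the closer pair b and c remains.

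Among members, calls at 3 d minus 1 d numbered 1, but 0 with median-of-ratios scaling and 3 at an adjusted p of 0.05, and 0 to 20 without 1 letter. At 5 d minus 3 d they numbered 0, but 2 at an adjusted p of 0.05, and 0 to 11 without 1 letter. At 7 d minus 5 d they numbered 1, but 2 with 0.1 added, 0 with no filter and 15 at an adjusted p of 0.05, and 0 to 44 without 1 letter. At 7 d minus 1 d they numbered 0, and 0 to 18 without 1 letter. At these steps 0% of all genes were called without replicate b, and at most 0.00523% in either direction without replicate c. The low ends are thus no trait of the members. Shares of all genes without replicate a are given above with each step. The other settings carry no such share here, and nothing is read from their counts. Across genes, deviations from the day means correlated at -0.10 to 0.12 between libraries with the same letter. Between libraries with different letters they correlated at -0.10 to 0.08. Such correlations cannot show a shift common to all genes or a batch within a day. Whether the letters mark batches was not tested. With the replicate letter as a block 1 member was called lower at 5 d minus 3 d, where 0.0452% of all genes were. The count of members called at the other steps was as without the block.

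For the 44 named members 1570 values were recomputed, of which 70 moved beyond the spread between libraries and 0 reversed. A further 1494 stayed within that spread or, for the 2 steps called, kept the call. Differences from 0 d carry no test, and loss of a call was judged only for the 2 steps called, which lost it in 6 values. Those were gene14733 (-1.31 with median-of-ratios scaling) and gene19560 (2.03 with no filter), and both without replicate b or c. FPKM without counts limits low members, of which 20 to 52 were under 1 in each heat library.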
